A study of Mus musculus with 21 samples.

Results

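Folr2, Lyve1, Cd163, Mrc1, Stab1, Timd4, Cd209f, Cd209g, F13a1 and Cbr2, which are transcribed by macrophages that reside in tissues, were followed across the 21 gastrocnemius libraries of the series. These 10 genes were taken by their symbols from the 40853 genes of the count table, and all 10 were kept by the low count filter of edgeR, which left 16129 genes to test. Poly(A) RNA of the medial belly of the gastrocnemius, a calf muscle, was sequenced from female C57BL/6NJ mice, with 1 library from each mouse and 7 mice in each group. Mice were 10 weeks of age when they were assigned to the Inactive group, which stayed in standard cages for 6 weeks, the Active group, which ran on a treadmill for 6 weeks, or the Activity Reduction group, which ran for 4 weeks and was then inactive for 2 weeks. Training took place 5 days per week at about 70% of maximal speed, in sessions of up to 40 min. All mice carried the same genotype, rested for 48 to 72 h after the final running test and were fasted for up to 6 h before collection. The genes were chosen by their normalised counts in these groups, with the differences already known, so the group values are given as a description without a test.

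Resident macrophages settle in a tissue and clear debris, iron-carrying proteins and matrix fragments there, largely through receptors that bind a ligand and carry it into the cell. In muscle they lie in the connective tissue between the fibres, near vessels. General macrophage genes were measurable in these libraries, as 18 of 18 passed the filter, but so did 19 of 19 hepatocyte genes and 6 of 6 muscle fibre genes, so this does not check the source of the 10 genes. Within groups, the general macrophage genes had a median correlation of only 0.07 with the mean of the 10 genes, against 0.60 for genes of connective tissue progenitors, so the genes are named here by their known expression. The 10 genes are not restricted to macrophages of muscle, since Lyve1 also marks lymphatic vessels, Stab1 is also made by sinusoidal endothelium and several of them are made by the macrophages of the liver. Whole muscle was sequenced, so fewer macrophages and less RNA per macrophage cannot be told apart.

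Cd209f and Cd209g, C-type lectins of the same gene cluster, are so alike that reads can be split between them. On GRCm39, with the GENCODE annotation, Cd209f lies at chr8:4151166-4155847 on the minus strand and Cd209g at chr8:4184098-4187714 on the plus strand. Their coding sequences were identical at 522 of 580 aligned bases (90%), and 1 unbroken stretch of 330 coding bases, spread over 4 exons, was the same in both. Stretches that matched Cd209g covered 99.1% of the Cd209f transcript compared, at up to 100% identity. The longest exon piece of the identical stretch, 152 bases, is shown because a read inside it fits both genes equally well. It lies at chr8:4154102-4154253 in Cd209f and at chr8:4186228-4186379 in Cd209g, 5′ to 3′ along both genes.
Cd209f and Cd209g: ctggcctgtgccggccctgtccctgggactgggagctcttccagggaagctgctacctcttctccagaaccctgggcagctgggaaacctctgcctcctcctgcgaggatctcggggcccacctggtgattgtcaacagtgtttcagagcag
The likeness extends upstream of the genes. In the RefSeq promoter windows (GRCm38.p6), which hold 250 bases before the start, an aligned stretch of 205 bases of Cd209f (chr8:4105765-4105969, minus strand) and 210 bases of Cd209g (chr8:4134512-4134721, plus strand) was identical at 193 positions and different at 12 (94.2% identity), with 2 gaps. Both are printed because they show how little sets these genes apart, with the differing aligned bases in capitals.
Cd209f: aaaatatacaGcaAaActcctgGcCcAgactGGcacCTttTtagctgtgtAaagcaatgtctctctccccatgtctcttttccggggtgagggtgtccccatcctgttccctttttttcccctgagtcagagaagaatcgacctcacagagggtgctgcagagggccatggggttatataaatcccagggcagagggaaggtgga
Cd209g: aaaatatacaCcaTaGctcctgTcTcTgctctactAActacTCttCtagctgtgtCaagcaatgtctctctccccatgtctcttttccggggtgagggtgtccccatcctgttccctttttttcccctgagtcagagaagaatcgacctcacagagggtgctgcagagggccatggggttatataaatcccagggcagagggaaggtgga

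Promoter windows of 9 of the 10 genes were found in the RefSeq table, and Lyve1 had no entry. The 9 genes had 11 windows. The core of the motif bound by PU.1, the transcription factor of the macrophage lineage (GAGGAA, searched on both strands), was present in 4 of the 11. These were windows of Mrc1, Stab1, F13a1 and Cbr2, and 23.25% of all 32851 windows held the motif. A MAF half-site (TGCTGAC, both strands) was present in 1 of the 11 windows, that of Timd4, and in 3.81% of all windows. Mrc1 held 3 PU.1 matches in its window, more than any of the other 8 genes, and is shown for that reason (chr2:14229164-14229413, GRCm38.p6, plus strand), with the matches, which lie on the opposite strand, in capitals. A match is only a match of letters.
Mrc1: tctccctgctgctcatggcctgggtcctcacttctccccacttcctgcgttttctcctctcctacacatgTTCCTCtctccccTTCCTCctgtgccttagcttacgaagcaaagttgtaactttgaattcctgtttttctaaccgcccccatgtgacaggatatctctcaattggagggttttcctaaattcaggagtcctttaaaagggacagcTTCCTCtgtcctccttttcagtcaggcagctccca

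The other 8 genes lie apart from each other except for Folr2 and Lyve1, which share a chromosome, and Timd4 and Cbr2, which share another. On GRCm39, Folr2 lies at chr7:101489195-101506401 (minus strand), Lyve1 at chr7:110448585-110462460 (minus), Cd163 at chr6:124281606-124307560 (plus), Mrc1 at chr2:14234151-14336926 (plus) and Stab1 at chr14:30860970-30890598 (minus). Timd4 lies at chr11:46701620-46735177 (plus), F13a1 at chr13:37051152-37234277 (minus) and Cbr2 at chr11:120620312-120622940 (minus). All are annotated as protein coding, and their values are counts over exons. The antisense gene Gm10602 covers 61.2% of the exon length of Folr2, and whether strand was used in the counting is not given in the sources used here, so reads from these genes cannot be told apart with certainty. Gm10602 itself was at 15.9 ± 5.59 normalised counts in Inactive mice, 16.3 ± 4.26 in Active mice and 15.3 ± 5.49 in Activity Reduction mice (SD, n = 7 each).

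Libraries held between 38482455 and 59785132 counts. Albumin (Alb), made by liver cells, divided them, as 13 libraries held 71.1 to 161 CPM of Alb (counts divided by the library total and scaled) and 8 held 365 to 1155 CPM. The limit that the gene rule used, 250 CPM, thus fell in a gap. The 8 libraries were Active replicates 1 to 5, Activity Reduction replicates 1 and 2 and Inactive replicate 1, so 5 of 7 Active mice were among them. By sample number these 8 come first, without a break, and the 13 libraries with less Alb follow. What the numbers stand for is not given. Differences by Alb cannot be told apart from differences by this order, and the groups are spread unevenly over both. Low counts were often even, with 33879 values of 2 and 14744 values of 1 in the whole table, so a count may not stand for a separate molecule, and no counting intervals are given.

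Per length of exon, the level of the enzyme Cbr2 was the highest of the 10, at a mean of 4.37 CPM per kilobase over the 21 libraries. Stab1 followed with 1.33, close to the median of 1.34 CPM per kilobase over the 14948 genes with a length. Mrc1 (0.811) and Folr2 (0.803) were next to each other, ahead of Lyve1 (0.600), Cd163 (0.530) and F13a1 (0.504), in CPM per kilobase. The low end was Cd209f with 0.188, Timd4 with 0.0607 and Cd209g with 0.0490 CPM per kilobase. In reads this meant a median of 674 counts per library for Stab1, 61 for Folr2, 11 for Timd4 and 10 for Cd209g. The exon length of Cd209g covers its whole span in the annotation, which lowers its level per length.

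Expression of all 10 genes was higher on average in the Active group than in either of the others, by 1.21-fold (Mrc1) to 2.15-fold (Folr2) over the Inactive group. Values below are normalised counts (counts divided by DESeq2 size factors), first as the lowest, median and highest of the 7 libraries of a group. Log2 fold changes with their standard errors are from edgeR on all 21 libraries. The comparisons of the Active group with each of the other groups share the 7 Active libraries, so they are not separate evidence.

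Folr2 encodes folate receptor beta, which binds folate at the macrophage surface. It was at 33.7, 41.9 and 59.0 normalised counts (lowest, median and highest) in the Inactive group, at 71.7, 104 and 119 in the Active group and at 23.2, 47.2 and 78.8 in the Activity Reduction group. Every Active library was above every Inactive library, and 3 of the 7 Activity Reduction libraries were above the highest Inactive library while 2 were below the lowest. The means were 44.3 ± 10.0, 95.2 ± 19.3 and 50.2 ± 21.9 normalised counts (SD, n = 7), a log2 fold change of 1.11 (SE 0.233) in the Active against the Inactive group and of -0.92 (SE 0.232) in the Activity Reduction against the Active group.

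Lyve1, the hyaluronan receptor, was at 54.1, 97.8 and 136 normalised counts in the Inactive group, 122, 184 and 223 in the Active group and 33.5, 78.9 and 191 in the Activity Reduction group. Of the Active libraries, 6 of 7 exceeded all Inactive libraries, and the widest range was that of the Activity Reduction group. Cd163, which takes up haemoglobin bound to haptoglobin, was at 88.1, 123 and 190 in the Inactive group, 118, 182 and 233 in the Active group and 59.8, 122 and 179 in the Activity Reduction group. Its groups overlapped, with 3 Active libraries above the Inactive range. The log2 fold change of the Active against the Inactive group was 0.88 (SE 0.263) for Lyve1 and 0.47 (SE 0.218) for Cd163, and that of the Activity Reduction against the Active group was -0.87 (SE 0.264) and -0.66 (SE 0.220).

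Mrc1, the mannose receptor, and Stab1, a large scavenger receptor for modified proteins and matrix, were the receptors with the most counts and the smallest differences. Mrc1 was at 230, 296 and 376 normalised counts in the Inactive group, 292, 350 and 452 in the Active group and 247, 288 and 320.6 in the Activity Reduction group. Stab1 was at 508, 612 and 790, at 704, 788 and 844 and at 515, 663 and 686 in the same order of groups. All 7 Activity Reduction libraries were below the lowest Active library for Stab1, whereas its Active and Inactive ranges overlapped. The log2 fold change of the Active against the Inactive group was 0.28 (SE 0.0956) for Mrc1 and 0.33 (SE 0.0881) for Stab1, and that of the Activity Reduction against the Active group was -0.33 (SE 0.0958) and -0.27 (SE 0.0881).

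Timd4, a receptor for phosphatidylserine on dying cells, had few counts in these libraries. It was at 3.57, 9.83 and 18.7 normalised counts in the Inactive group, 6.94, 14.6 and 42.5 in the Active group and 3.65, 6.32 and 28.4 in the Activity Reduction group. Single libraries, Active replicate 1 (42.5) and Activity Reduction replicate 5 (28.4), were far above the rest of their groups. Its log2 fold change of 0.82 (SE 0.468) in the Active against the Inactive group became 0.42 without Active replicate 1. In the Activity Reduction against the Active group it was -0.95 (SE 0.474), which became -1.63 without Activity Reduction replicate 5 and -0.55 without Active replicate 1.

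For the lectins, which recognise sugars on microbes and host proteins, Cd209f was at 13.1, 24.3 and 37.7 normalised counts in the Inactive group, 25.9, 47.4 and 62.1 in the Active group and 9.86, 22.7 and 36.6 in the Activity Reduction group. Of the Active libraries, 6 of 7 were above the whole Inactive range and 5 of 7 Activity Reduction libraries were below the Active range. Cd209g was at 3.75, 6.55 and 18.9, at 6.18, 11.5 and 16.0 and at 0, 9.86 and 11.9, with no Active library above the Inactive range and a count of 0 in Activity Reduction replicate 6. The log2 fold change was 0.92 (SE 0.285) for Cd209f and 0.40 (SE 0.463) for Cd209g in the Active against the Inactive group, and -1.17 (SE 0.289) and -0.58 (SE 0.471) in the Activity Reduction against the Active group. Without Inactive replicate 6, Cd209g was at 0.74 in the Active against the Inactive group, and without Activity Reduction replicate 6 it was at -0.37 in the Activity Reduction against the Active group. Because of the shared sequence printed above, their counts were also added together, a choice made after the data were seen. The sum had means of 32.8 ± 12.6 normalised counts in the Inactive group, 57.2 ± 14.1 in Active and 27.7 ± 12.6 in Activity Reduction libraries (SD, n = 7), the same order of the Active group over the others.

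F13a1 encodes the A subunit of coagulation factor XIII, a transglutaminase that cross-links proteins. It was at 98.3, 154 and 193 normalised counts in the Inactive group, 168, 240 and 334 in the Active group and 57.2, 122 and 200 in the Activity Reduction group. The Active range began within the Inactive range, with 5 of 7 Active libraries above it. Cbr2, a carbonyl reductase, was at 201, 252 and 335, at 310.97, 338 and 378 and at 227, 268 and 328 in the same order of groups. Of the 7 Active libraries of Cbr2, 4 were above the Inactive range. The log2 fold change of the Active against the Inactive group was 0.67 (SE 0.211) for F13a1 and 0.46 (SE 0.110) for Cbr2, and that of the Activity Reduction against the Active group was -0.96 (SE 0.213) and -0.30 (SE 0.110).

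**Figure D1:**
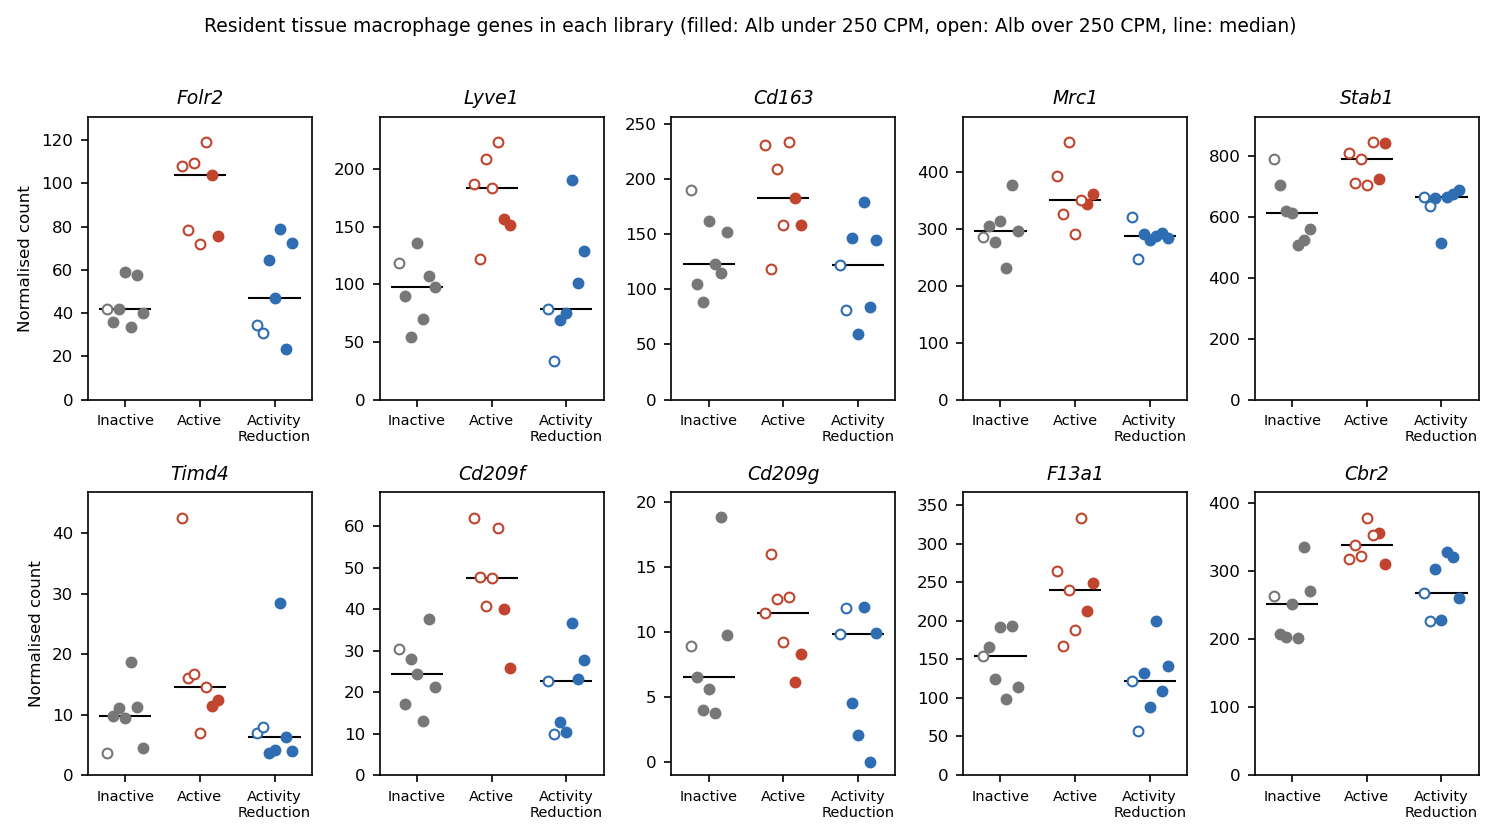
Each panel plots the normalised count of 1 gene in the 21 libraries (y axis, panels scaled separately) by group (x axis). A point is 1 mouse, filled where Alb was under 250 CPM and open where it was over, and the line is the median of the 7 libraries. Only for Folr2 do the Active points clear all Inactive points, 71.7 against 59.0, and only for Stab1 do the Active points clear all Activity Reduction points, 704 against 686.

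Over the list, log2 fold changes of the Active against the Inactive group were above 0 for 10 of 10 genes (51.6% of the 16129 genes tested were), with a median of 0.57, and those of the Activity Reduction against the Active group were below 0 for 10 of 10 (50.2% of all genes), with a median of -0.76. Between the Activity Reduction and Inactive groups the values lay on both sides of 0, from -0.29 for F13a1 to 0.19 for Folr2, with 4 above (52.2% of all genes) and 6 below and a median of -0.09. These values rested on single libraries, since the median was -0.28 without Activity Reduction replicate 5, with Folr2 at 0.04, Lyve1 at -0.24 and Timd4 at -0.81, and 0.01 without Inactive replicate 6, with 6 genes above 0 and 4 below. With edgeR's quasi-likelihood test, 0 of the 10 passed the thresholds (Benjamini-Hochberg adjusted p-value under 0.05 and log2 fold change over 0.25) in the Active against the Inactive group, where 0% of all genes did. In the Activity Reduction against the Active group 0 of 10 passed (0% of all genes), and in the Activity Reduction against the Inactive group 0 of 10 passed (0.0124%). At an unadjusted p-value under 0.05 the same edgeR test gave 10.9%, 13.3% and 7.73% of all genes in these comparisons.

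The count of genes called depended on the tool. DESeq2 on the 3 groups called Lyve1, Stab1 and Cbr2 in the Active against the Inactive group, 3 of the 6 that it gave an adjusted p-value (0.524% of all genes). Folr2, Cd209f, Timd4 and Cd209g, the 4 with the fewest counts, were given no adjusted p-value there, so they could not be called. In the Activity Reduction against the Active group it called Folr2, Lyve1, Cd209f and F13a1, 4 of 8 (0.791%). With the third group left out of the fit, DESeq2 called 5 of 7 (0.591%) and 6 of 8 (1.03%), and between the Activity Reduction and Inactive groups 0 of 10 (0.258%). These contrasts were in view when the genes were listed, so their counts are a description. Folr2 was the 1 gene of the 10 whose Active libraries all exceeded the Inactive libraries, which 0.0434% of all genes did, and Stab1 the 1 gene whose Activity Reduction libraries were all below the Active libraries, which 0.112% did.

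**Figure D2:**
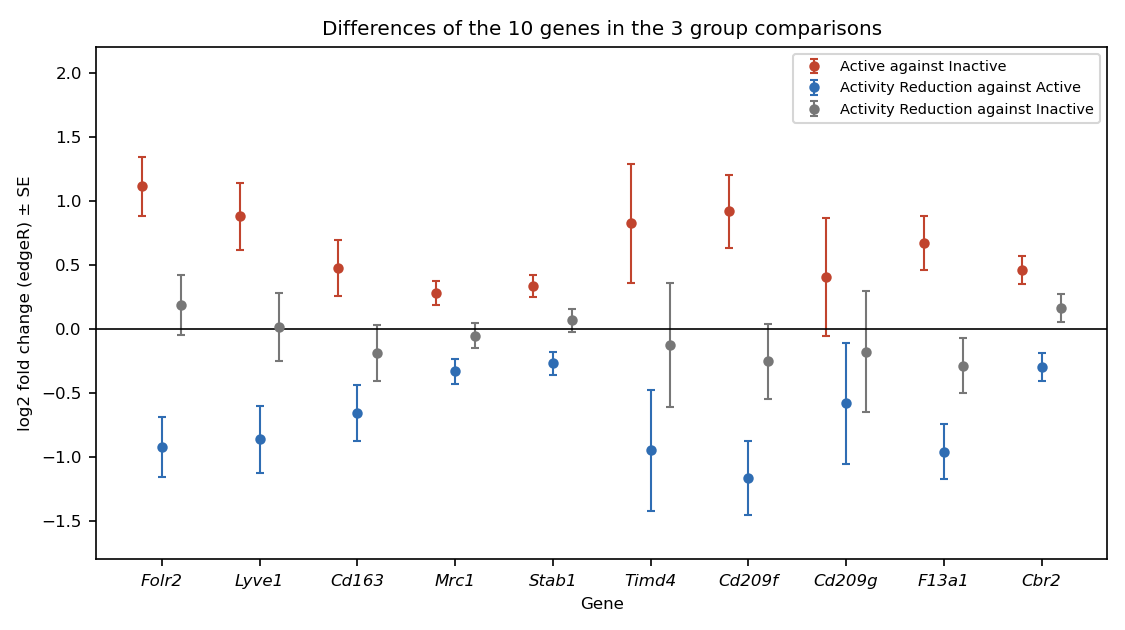
Log2 fold changes from edgeR (y axis, points, with bars for 1 SE) of the 10 genes (x axis) in the 3 group comparisons. The Active against Inactive points run from 0.28 to 1.11, the Activity Reduction against Active points from -1.17 to -0.27, and the Activity Reduction against Inactive points from -0.29 to 0.19.

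Within groups, the mice differed along with several of the genes at once. Activity Reduction replicate 5 was the highest library of its group for 8 of the 10 genes, all but Mrc1 and Stab1, and Activity Reduction replicate 2 the lowest for 5. In the Inactive group, replicate 5 was the lowest for 7 genes and replicate 6 the highest for 5, and in the Active group replicate 5 was the highest for 5. Without Activity Reduction replicate 5, the log2 fold change of the Activity Reduction against the Active group was -1.07 for Folr2 and -1.12 for Lyve1, further from 0 than with it.

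With the group means removed, which takes out the group differences, 43 of the 45 pairs of genes had a Pearson correlation above 0 over the 21 libraries, with a median r of 0.38. These are descriptions, and the points share library depth and tissue sampling. The highest r was that of Lyve1 with F13a1 (0.82), and F13a1 had the highest median r with the other 9 genes (0.59), followed by Lyve1 (0.56) and Cd163 (0.48). Timd4 (median r 0.14) and Stab1 (0.21) varied least with the others. For Folr2, its 9 relations with the other genes were tested by permutation of libraries within groups (100000 permutations, two-sided). Folr2 was chosen after the values were seen, and the adjustment covers these 9 relations, not all 45 pairs. The share of all genes with a like r to Folr2 was not computed. The p-values are thus a description and do not set any relation apart. Folr2 rose and fell with F13a1, with r of 0.68 (permutation p = 0.00334, adjusted p = 0.0301 over 9 relations) and Spearman's rho of 0.70 (permutation p = 0.00185, adjusted p = 0.0166). Without the 2 libraries farthest from the median of Folr2, r was 0.71, and it was 0.63 within the 13 libraries with less Alb and 0.80 within the 8 with more. The relation of Folr2 with Cd163 had r of 0.60 (adjusted permutation p = 0.0803) and rho of 0.65 (adjusted permutation p = 0.047). Its r was 0.51 without the 2 farthest libraries. Lyve1 had r of 0.56 with Folr2 and an adjusted permutation p of 0.0962.

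**Figure D3:**
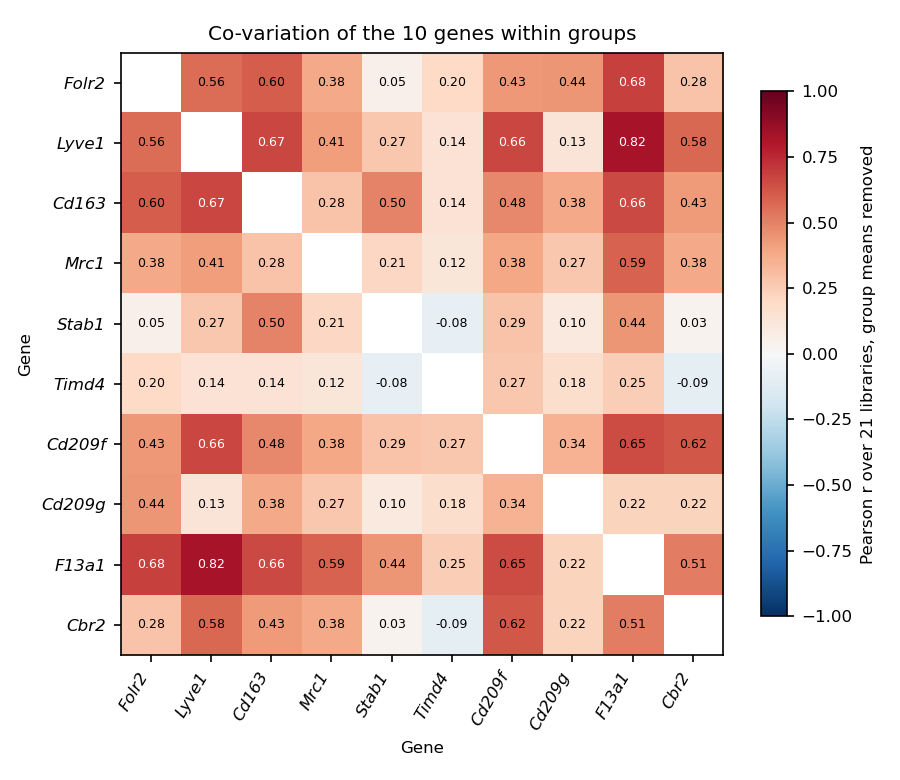
Pearson r between each pair of the 10 genes (both axes) over 21 libraries after the group means were removed, with colour from -1 to 1. The darkest cells are those of F13a1 with Lyve1 (0.82) and with Folr2 (0.68), whereas the Timd4 row stays between -0.09 and 0.27.

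Outside the 10, the genes that varied most like their mean within groups were Ccl11 (r = 0.82), which encodes the eosinophil attractant eotaxin, and Fam83g (0.81). Scara5 (0.81), a ferritin receptor, Gm36535 (0.80) and Ptgfrn (0.79) followed, each r over the 21 libraries with the group means removed. The lowest r of the 16119 genes was -0.80, so values of this size occurred at both ends. With the group means kept, Fam83g was at 0.58 and the others between 0.73 and 0.85. Among the marker lists, the genes of fibro-adipogenic progenitors, the connective tissue cells of muscle, had the highest median r, 0.60 over 6 genes, up to 0.78 for Dcn, which encodes the matrix protein decorin. Next were the platelet list (0.28 over 3 genes, led by Pf4, which is also in the other resident macrophage list) and the lymphatic endothelial list. The latter had a median r of 0.27 over 6 genes, led by Mmrn1 with 0.58. The median r was 0.17 over 17 other resident macrophage genes, led by Clec10a with 0.72, and 0.07 over 18 general macrophage genes, led by Csf1r with 0.53. It was 0.08 over 19 hepatocyte genes, -0.04 over 3 Kupffer cell genes (macrophages of the liver) and 0.01 over all 16119 other genes tested. The summed level of the 6 progenitor genes was 142 to 220 CPM in the Inactive group, 209 to 280 in the Active group and 145 to 220 in the Activity Reduction group, and none of the 6 was at 0 in any library. Their log2 fold changes were above 0 for 6 of 6 in the Active against the Inactive group (median 0.26) and below 0 for 6 of 6 in the Activity Reduction against the Active group (median -0.38), with 0 called by edgeR. The part of these cells in the differences of the macrophage genes was not tested.

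**Figure D4:**
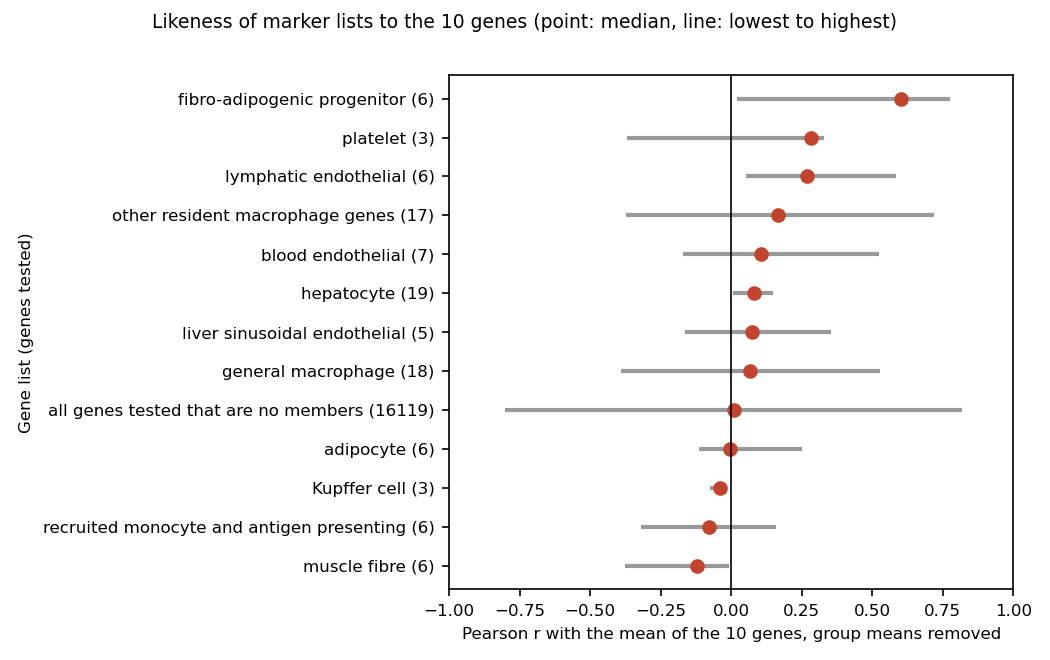
Pearson r of listed marker genes with the mean of the 10 genes, group means removed (x axis), for each list (y axis, number of genes tested in parentheses). Points are medians and lines run from the lowest to the highest gene, with the progenitor list at 0.60 and the general macrophage list at 0.07.

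Other macrophage genes were described in the same fits. Of 18 other genes of resident macrophages, 17 were tested, and 15 had a log2 fold change above 0 in the Active against the Inactive group (median 0.24, against 0.01 for all genes tested) and 15 below 0 in the Activity Reduction against the Active group (median -0.47). Of the 18 general macrophage genes, 14 were above 0 (median 0.19) and 16 below 0 (median -0.28) in these comparisons. With the Alb division as a covariate, the medians of the other resident macrophage genes, a list that includes the Kupffer cell gene Vsig4, were 0.16 (13 above 0) and -0.25 (13 below 0). Those of the general macrophage genes were then 0.35 (18 of 18 above 0) and -0.35 (17 below 0). Csf1r, the receptor for the growth factor of the lineage, had log2 fold changes of 0.53 (SE 0.174) and -0.74 (SE 0.175), Adgre1, which encodes F4/80, 0.41 (SE 0.327) and -0.48 (SE 0.329), and Cd68, a lysosomal protein, -0.07 (SE 0.432) and 0.12 (SE 0.433). For recruited monocytes and antigen-presenting cells, 6 of 9 genes were tested, with medians of 0.03 and -0.23. In edgeR, 0 genes of these 3 lists were called in any group comparison. Their summed levels overlapped between groups, at 35.9 to 85.0 CPM in the Inactive group, 43.8 to 80.5 in the Active group and 23.2 to 78.0 in the Activity Reduction group for the general list.

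The remaining marker lists also had 0 genes called by edgeR in the Active against the Inactive or the Activity Reduction against the Active group. The median log2 fold changes in these comparisons were 1.18 and -0.92 over 19 hepatocyte genes, 1.29 and -1.08 over 3 Kupffer cell genes and 1.14 and -1.02 over 5 genes of the sinusoidal endothelium of the liver, the signs of the resident macrophage genes. With the Alb division as a covariate, the hepatocyte medians turned to -0.14 (18 of 19 below 0) and 0.11 (16 of 19 above 0). The Kupffer cell medians were then 0.18 and -0.13 and the sinusoidal endothelial medians 0.0016 and -0.28. The covariate was made from Alb, which is on the hepatocyte list, so the shift of the hepatocyte medians was built into this fit. The medians of the 10 genes in it were 0.62 and -0.77, with Cd209g at -0.01 in the Active against the Inactive group. A liver share in the 10 genes was not tested by these values. Without this covariate, the medians were 0.38 and -0.25 over 6 lymphatic endothelial genes and 0.14 and -0.17 over 7 blood endothelial genes. In that same fit, adipocyte genes had medians of 0.11 and -0.42 (6 genes), platelet genes 0.20 and -0.44 (3 genes of 6) and muscle fibre genes 0.06 and -0.0041 (6 genes). Of the neutrophil list 0 of 4 genes passed the filter, and of the lymphocyte list 1 of 5 did.

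Because liver macrophages and liver endothelium transcribe several of the 10 genes, the libraries with more and less Alb were compared directly, with group as a covariate, a contrast that the gene rule did not use. With edgeR's quasi-likelihood test, 677 of 16129 genes were called (4.2%), 651 of them higher in the 8 libraries with more Alb, and 0 of the 10 genes were. All 19 hepatocyte genes were called, at a median log2 difference of 2.67. Alb is on this list and was used to divide the libraries, so its own call was fixed by the division. The Kupffer cell genes Clec4f (2.31, adjusted p = 7.38e-06), Cd5l (2.12, adjusted p = 2.49e-05) and Vsig4 (2.29, adjusted p = 0.0135) were also called. Clec4g (2.42), Dnase1l3 (2.06) and Oit3 (2.25) of the liver sinusoidal endothelium were called too, whereas Stab2 of the same list was at 0.02. In the other lists, Igf1 (0.98) and Prox1 (0.56) were called higher and Mb (-0.19) had an adjusted p-value of 0.028 but a difference under the fold threshold.

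The 10 genes had log2 differences on both sides of 0 in this contrast, 4 above (48.2% of all genes) and 6 below, with a median of -0.02. Folr2 was at -0.25 (95% interval -0.72 to 0.22), Lyve1 at -0.13 (-0.66 to 0.41) and Cd163 at 0.13 (-0.29 to 0.56). The receptors with the most counts had the narrowest intervals, Mrc1 from -0.20 to 0.20 and Stab1 from -0.06 to 0.28, and Cbr2 lay between -0.26 and 0.19. F13a1 was at -0.16 (-0.58 to 0.26) and Cd209f at 0.21 (-0.39 to 0.81). The intervals of Timd4 (-1.13 to 0.93) and Cd209g (-0.22 to 1.57) were the widest, and these genes had the fewest counts. For 9 of the 10 genes the upper bound was under 1, and the lower bounds of Clec4f (1.66) and Cd5l (1.47) were above 1. In Inactive libraries with less Alb, Clec4f had a median of 11.9 normalised counts and Stab1 of 586. Liver RNA would thus not shift both by a like log2 difference, so these bounds cannot be compared as a measure of it. A liver share in the 10 genes was not tested. Adjusted p-values of the 10 genes ran from 0.598 for Cd209g to 1.00 for Mrc1 (edgeR with Benjamini-Hochberg adjustment).

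**Figure D5:**
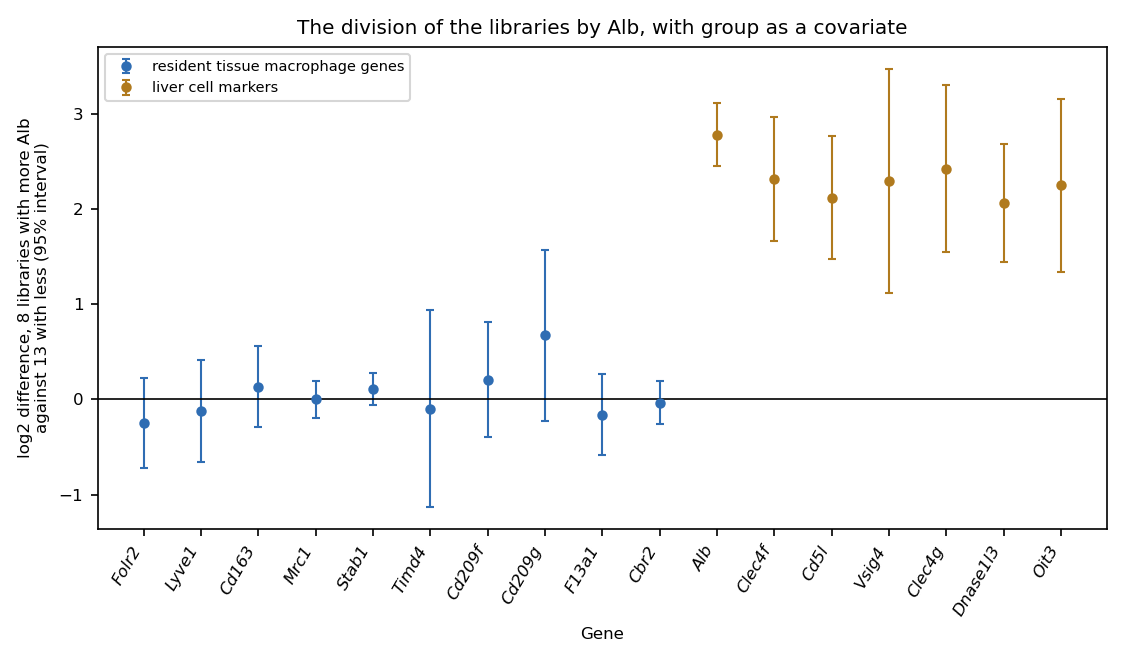
Log2 differences with 95% intervals (y axis) between the 8 libraries with more Alb and the 13 with less, group as a covariate, for the 10 genes and 7 liver cell markers (x axis). All 10 intervals of the resident macrophage genes include 0, and the 7 liver markers shown, all called, lie between 2.06 and 2.78. Alb is among these 7 and was used to divide the libraries, so its difference was fixed by the division. Stab2 (0.02) and Gpr182 of the sinusoidal endothelial list were not called and are not shown.

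The group values were given again in the 13 libraries with less Alb, 6 Inactive, 2 Active and 5 Activity Reduction mice. Both Active libraries were above all Inactive libraries for Folr2, Lyve1, Stab1 and F13a1, 4 of the 10 genes (4.61% of all genes), and all Activity Reduction libraries were below both Active libraries for Mrc1, Stab1 and F13a1, 3 of the 10 (5.1%). Folr2 was at 33.7, 41.0 and 59.0 normalised counts in these Inactive libraries, at 75.7 and 104 in the Active libraries and at 23.2, 47.2, 64.7, 72.4 and 78.8 in the Activity Reduction libraries. Activity Reduction replicate 5 thus lay inside the Active range, and the log2 fold change of the Active against the Inactive group was 1.01 (SE 0.342). That of Cd209f was 0.49 (SE 0.459), that of Timd4 0.15 (SE 0.730) and that of Cd209g -0.16 (SE 0.867), against 0.92, 0.82 and 0.40 in all libraries. The differences of the Activity Reduction against the Active group were smaller in these 13 libraries, with a median over the 10 genes of -0.39 against -0.76 in all libraries, although 10 of 10 stayed below 0. Lyve1 was at -0.45 (SE 0.347), Cd209f at -0.58 (SE 0.473), Timd4 at -0.34 (SE 0.751) and Cd209g at -0.32 (SE 0.898), against -0.87, -1.17, -0.95 and -0.58. Folr2 was at -0.65 (SE 0.354) and F13a1 at -0.78 (SE 0.280). Between the Activity Reduction and Inactive groups, Folr2 was at 0.36 (SE 0.269) and Lyve1 at 0.29 (SE 0.259) in these libraries, against 0.19 and 0.01. With the Alb division as a covariate in all 21 libraries, Folr2 was at 1.26 (SE 0.263), Timd4 at 0.89 (SE 0.582) and Cd209g at -0.01 (SE 0.480), and 9 of the 10 genes were above 0 in both settings.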

How the data were processed

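Reads were trimmed (fastp), aligned to GRCm39 (STAR) and counted per gene (featureCounts) by the authors. The deposited values are counts per gene and library without normalization, and a further deposited table named for normalised values held the same 857913 values and was not used. The annotation and the strand, mate and multimapping settings are not given in the sources used here. The 10 genes and the marker lists were chosen with earlier results of these data known. Counts were tested with edgeR 4.0.16 (R 4.3.3) by its quasi-likelihood test, with TMM factors, filterByExpr and all 21 libraries, and tested on simulated data. Called genes had a Benjamini-Hochberg adjusted p-value under 0.05 and a log2 fold change over 0.25. DESeq2 1.42.0, which the authors used, gave the size factors and an alternative. Other alternatives were RLE factors, no filter, the Alb division (250 CPM) as a covariate or a limit, a replicate block and leaving out each library. Named genes were the 10, Alb, the 5 most alike in variation, called list genes and defining markers. Clec10a, Dcn and the Gm10602 values were added after the data were seen. Correlations used log2 values with a prior count of 2. Each library is a separate mouse.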

Additional observations from a re-analysis of the deposited data

Results flagged for a closer look

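In 4 of 30 groups of 7 libraries (10 genes, 3 groups), 1 library stood further from the rest than Dixon's 95% limit, where chance gives about 1 in 20. Stab1 was at 515 normalised counts in Activity Reduction replicate 4, with the next library at 634. Timd4 was at 42.5 in Active replicate 1 (next 16.7) and at 28.4 in Activity Reduction replicate 5 (next 7.89). Cd209g was at 18.9 in Inactive replicate 6, with the next library at 9.78.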

How the results depend on the processing

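With DESeq2 on the 3 groups, 3 of the 6 genes given an adjusted p-value were called between Active and Inactive mice (0.524% of all genes). Between Activity Reduction and Active mice 4 of 8 were (0.791%). With DESeq2 on only the groups compared these were 5 of 7 (0.591%) and 6 of 8 (1.03%). With edgeR they were 0 of 10 and 0 of 10, where 0% of all genes were called. Under the edgeR alternatives, and without each library in turn, 0 of the 10 genes were called in all 4 contrasts (0 to 0). These fits called at most 0.0553% of all genes in the group contrasts and 2.58% to 4.78% in the Alb contrast. In the Alb contrast, some values changed sign without reaching the threshold. Without the group term, which leaves the group differences in, 10 of the 10 genes were above 0 (47.6% of all genes), with a median of 0.38. Of the 10, 0 were called in that fit (4.78% of all genes). The genes that changed sign there were Folr2 (from -0.25 to 0.40), Lyve1 (to 0.40), Mrc1 (to 0.14), Timd4 (to 0.45), F13a1 (to 0.30) and Cbr2 (to 0.17). Mrc1 was at 0.0011 without a filter. With the replicate block, Mrc1 was at 0.0084, Stab1 at -0.0048 and Cbr2 at 0.20, and 0 of the 10 genes were called (3.32% of all genes). Same-numbered libraries did not pair (r from -0.22 to 0.47 over 21 pairs, 7 over 0.1, and 3 libraries correlating best with their own number). Leaving out 1 library gave Lyve1 from -0.32 to 0.12, Cd163 from -0.0458 to 0.26, Mrc1 from -0.0511 to 0.05, Timd4 from -0.34 to 0.29, F13a1 from -0.24 to 0.014 and Cbr2 from -0.0841 to 0.0251 in that contrast. The group log2 fold changes kept the sign of the Active group for all 10 genes when any library was left out. The signs between the Activity Reduction and Inactive groups were less stable, with that of Lyve1 changing in 6 of 21 such fits. The causes were not tested. Depth limits Timd4, Cd209g and Cd209f, with medians of 11, 10 and 28 counts.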
